A study of Mus musculus with 18 samples.

Results

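The transcription factors that define the hepatocyte were followed in liver RNA of mice with error-prone translation: *Hnf4a*, *Foxa1*, *Foxa2*, *Foxa3*, *Cebpa*, *Nr5a2*, *Onecut1*, *Nr1i2* and *Nr1i3*. They were chosen by name, as 9 genes of the 22524 listed for each mouse, and were found through their Ensembl identifiers; all 9 passed the filter on low counts, which kept 13353 genes. RNA-seq counts came from frozen liver of 10 A226Y mice and 8 wild-type (WT) mice, 1 library per mouse, all female, C57BL/6 and 15 months old. The A226Y mice were heterozygous for a knock-in allele of *Rps2*, a protein of the small ribosomal subunit, and carried the ubiquitous CMV-Cre transgene that removes a loxP-flanked STOP cassette from that allele. Excision was partial, so their livers were mosaics of cells with the expressed mutant allele and cells in which the cassette still silenced it. The WT mice carried CMV-Cre too and no targeted *Rps2* allele, so the comparison holds Cre equal but cannot tell the mutant protein from the silenced copy. Mice are named here by the number in their sample title.

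Hepatocyte identity rests on a small group of transcription factors that bind each other's genes and the genes of liver function together. HNF4A, a nuclear receptor, is needed for the epithelial and metabolic programme of the hepatocyte, the FOXA proteins open compacted chromatin at liver enhancers, and C/EBP-alpha, a leucine zipper factor, drives genes of gluconeogenesis, the urea cycle and lipid handling. ONECUT1 (HNF6) acts in hepatocyte and bile duct development, NR5A2 (LRH-1) controls bile acid and cholesterol genes, and NR1I2 (PXR) and NR1I3 (CAR) sense foreign compounds and switch on their metabolism.

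*Foxa2* and the counts of *Nr1i3*, which cannot be told apart from those of the overlapping gene *Tomm40l*, were lower in A226Y liver, by 0.33 and 0.46 on the log2 scale, and *Cebpa* had a value of -0.33 that did not pass the test. The other 6 factors, *Hnf4a* among them, had log2 fold changes between -0.06 and 0.14. By edgeR's quasi-likelihood test, with Benjamini-Hochberg adjustment over the 13353 tested genes and a call at an adjusted p under 0.05, 2 of the 9 factors (22.2%) were called. Among all tested genes 14.3% were called, 7.27% higher and 7.03% lower in A226Y. The *Foxa2* call held in all 18 fits that left out a mouse and the *Nr1i3* call in 12 of them. None of the 9 was called higher, with 0 at an unadjusted p under 0.05 and 0 by DESeq2 or limma-voom. The median log2 fold change was 0.002 over the 9 factors and -0.004 over all tested genes. The ranges of the genotypes overlapped for all 9 factors, and 0.637% of the tested genes had ranges that did not overlap.

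The upstream sequences of *Foxa2*, *Nr1i3* and *Cebpa* are shown because these were the 3 factors for which all 10 A226Y mice lay under the WT mean. RefSeq promoters (GRCm38.p6) were given for all 9 factors, 13 in all, and each run below is the 250 bases before the start site, 5′ to 3′ on the gene's strand. Capitals mark the only kind of motif found in them, the HNF6 motif ATTGATT. The *Foxa2* run lies at chr2:148046970-148047219 on the minus strand, before the most distal of its 3 start sites. The *Nr1i3* run lies at chr1:171213720-171213969 on the plus strand, and the *Cebpa* run at chr7:35119043-35119292 on the plus strand.
Foxa2: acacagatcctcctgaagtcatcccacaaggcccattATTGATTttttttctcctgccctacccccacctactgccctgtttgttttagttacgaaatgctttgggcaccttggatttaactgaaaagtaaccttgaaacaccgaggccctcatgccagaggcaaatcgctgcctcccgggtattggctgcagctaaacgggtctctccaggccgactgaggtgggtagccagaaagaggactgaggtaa
Nr1i3: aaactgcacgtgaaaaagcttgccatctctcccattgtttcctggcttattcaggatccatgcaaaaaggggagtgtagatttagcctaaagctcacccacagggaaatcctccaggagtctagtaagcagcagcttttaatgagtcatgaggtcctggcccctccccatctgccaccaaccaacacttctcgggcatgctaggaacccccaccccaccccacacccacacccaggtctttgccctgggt
Cebpa: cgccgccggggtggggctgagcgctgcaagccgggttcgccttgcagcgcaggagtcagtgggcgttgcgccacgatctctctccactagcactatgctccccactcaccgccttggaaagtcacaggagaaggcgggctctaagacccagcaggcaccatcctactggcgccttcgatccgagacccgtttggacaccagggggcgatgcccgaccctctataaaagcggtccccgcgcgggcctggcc
The 13 runs were searched on both strands for 8 motifs, which were chosen with the results known. The *Foxa2* run held the HNF6 motif from base -213 to base -207, counted from the start site. A run before a distal start of *Hnf4a* held it from -60 to -54. The FOXA motif TGTTTAC lay upstream of *Foxa1*, from -141 to -135. The HNF1 motif GTTAATNAT and the C/EBP motif TTGCNNAA each lay upstream of a start of *Nr5a2*, from -236 to -228 and from -243 to -236. No motif of the 8 was found in the runs of *Nr1i3*, *Cebpa*, *Foxa3*, *Onecut1* or *Nr1i2*. Of 32851 mouse promoters of the same length, 2.61% held the HNF6 motif, 3.17% the FOXA motif, 0.737% the HNF1 motif and 9.56% the C/EBP motif. The HNF4A motif CAAAGTNCA, found in no run here, was in 1.19% of the promoters. The LRH-1 motif CAAGGNCA was in 5.53%, the D-box motif TTANGTAA in 2.06% and the single CAR-type hexamer AGTTCA in 11.8%, again with no match among the 13 runs. A match of letters is not a bound site.

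Totals of counted reads ran from 23850565 to 62126131 per mouse (median 32058379 in A226Y and 31702989 in WT). The spread between mice, not counting error, limits the precision for these genes, the scarcest of which (*Onecut1*) still had at least 235 counts in every mouse. With 1 library per mouse, differences between animals and between library preparations cannot be told apart in that spread. *Rps2* itself stood at 68.6 CPM ± 13.3 (SD, n = 10) in A226Y and 114 ± 13 (SD, n = 8) in WT, a log2 fold change of -0.73 (SE 0.11, edgeR adjusted p = 0.000772). CPM are counts scaled to a common library total with TMM factors. On the second principal component, which held 19.1% of the variance of log2 CPM, A226Y mouse 29 (61.1) and WT mouse 33 (31.8) stood apart from the other mice, and list counts and calls that change without them are given beside the results. The fit without these mice called 2363 of 13269 tested genes, more than the 1910 of 13353 called with all mice. Every list count from it is to be read beside that larger share. Length and GC content of transcripts moved with genotype: long genes tended to be lower in 7 of 8 WT mice and higher in 9 of 10 A226Y mice, and GC-rich genes higher in 6 of 8 WT mice and lower in 9 of 10 A226Y mice (signs of the slopes of the log2 deviation from the mean of all mice). Deviations from a shared mean partly build in opposite signs for the 2 genotypes. Length slopes ran from -0.0941 (WT mouse 14) to 0.0925 (A226Y mouse 22). Some slopes were close to 0, such as -0.00344 for length in WT mouse 28, 0.00245 for length in A226Y mouse 18 and -0.00301 for GC in A226Y mouse 32. The part of this in the results was not tested beyond the offsets given. The liver label held: 20 of 20 hepatocyte marker genes were detected, with summed levels of 133000 to 225000 CPM in WT and 124000 to 192000 CPM in A226Y. In whole liver, fewer cells of a type and less RNA per cell cannot be told apart.

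**Figure D1:**
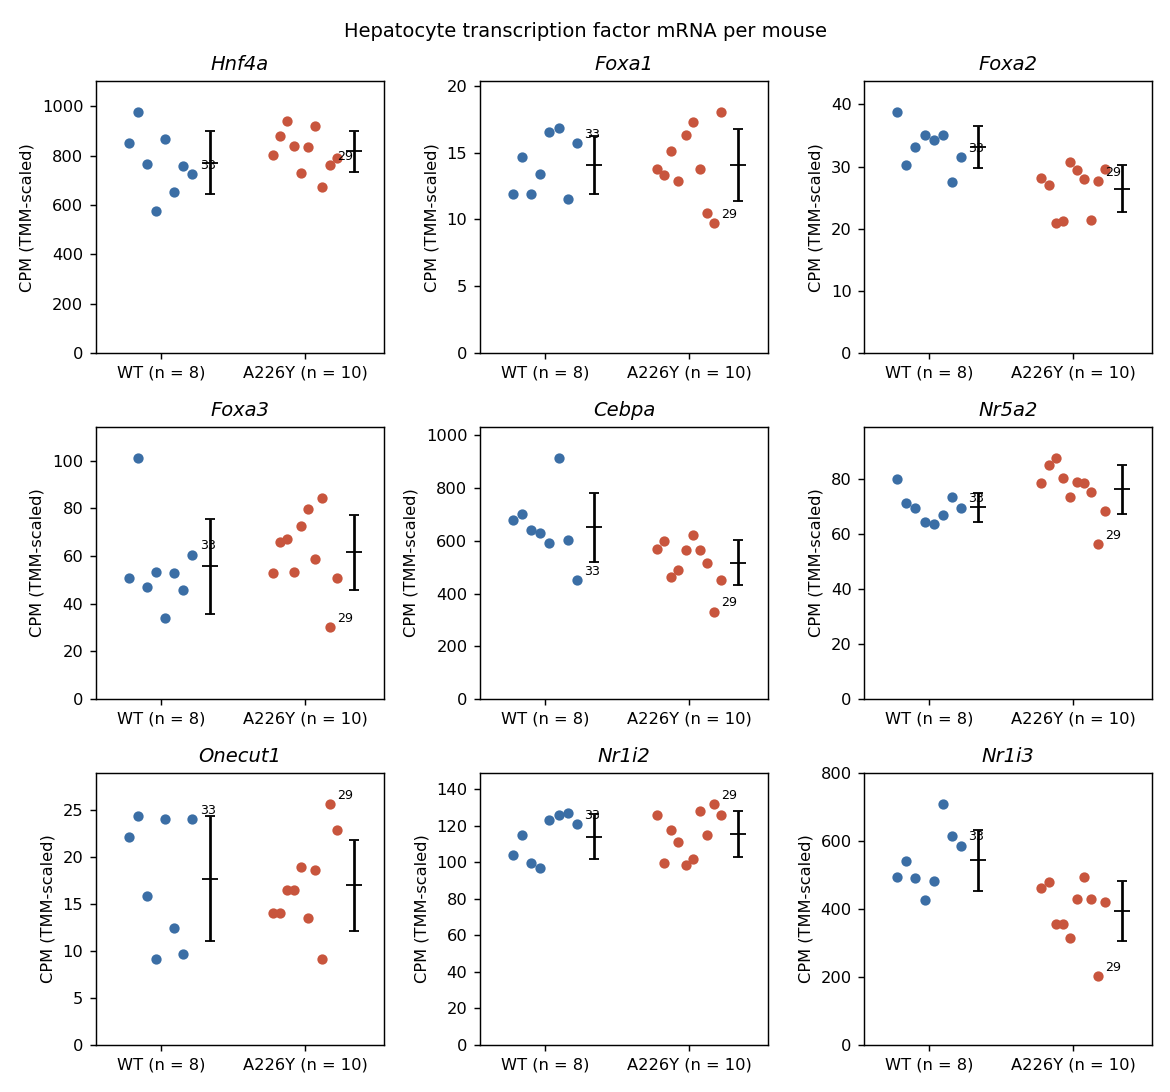
Level of each factor in TMM-scaled CPM (y axis) in every mouse of the WT (n = 8, blue) and A226Y (n = 10, red) groups, with the group mean and SD as a bar beside the points; the numbers mark A226Y mouse 29 and WT mouse 33. For *Foxa2*, *Cebpa* and *Nr1i3* all 10 A226Y points lie under the WT mean of 33.2, 652 and 544 CPM, and for all 9 factors the ranges overlap.

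*Hnf4a* (chromosome 2, 163506808 to 163572910, plus strand, GRCm38) encodes the nuclear receptor on which most hepatocyte genes depend. It lay between 575 and 975 CPM in WT, with a median of 762, and between 671 and 941 CPM in A226Y, with a median of 820. Every A226Y mouse fell inside the WT range, with 7 of 10 above the WT mean. The mean was 817 CPM ± 84.0 (SD, n = 10) against 771 ± 126 (SD, n = 8), and the log2 fold change of 0.08 (SE 0.09, edgeR adjusted p = 0.59) had a 95% interval from -0.12 to 0.28. Differences anywhere in that interval are compatible with these mice. The counts do not separate the transcripts from its distal and proximal promoters.

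The 3 FOXA genes, which encode winged-helix factors that bind the same motif, differed in their values. *Foxa2* (chromosome 2, 148042877 to 148046969, minus strand) lay between 27.5 and 38.7 CPM in WT (median 33.7) and between 20.9 and 30.7 CPM in A226Y (median 27.8). In all, 4 A226Y mice lay under every WT mouse, and all 10 lay under the WT mean. The mean was 26.4 CPM ± 3.74 (SD, n = 10) against 33.2 ± 3.42 (SD, n = 8), 0.796 times the WT level. *Foxa2* was lower in A226Y at a log2 fold change of -0.33 (SE 0.08, 95% interval -0.51 to -0.15, edgeR adjusted p = 0.0148), and a two-sided exact permutation test of its log2 CPM gave p = 0.000914. The call held in each of the 18 fits that left out a mouse (adjusted p from 0.00998 to 0.0321) and without mice 29 and 33 (-0.34, adjusted p = 0.0174). With 4 surrogate variables as covariates, which left 50 calls among all genes, the value was -0.23 with an adjusted p of 0.368.

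*Foxa1* (chromosome 12, 57540628 to 57546916, minus strand) and *Foxa3* (chromosome 7, 19013284 to 19023538, minus strand) were not called. *Foxa1* lay between 11.5 and 16.8 CPM in WT (median 14.1) and between 9.70 and 18 CPM in A226Y (median 13.8). The A226Y mice spread past the WT mice on both sides, 2 below and 2 above. Its log2 fold change was 0.00 (SE 0.12, 95% interval -0.24 to 0.25, edgeR adjusted p = 0.994). *Foxa3*, which encodes the family member that maintains glucose output in the fasted adult, lay between 33.9 and 101 CPM in WT (median 51.8) and between 30.2 and 84.2 CPM in A226Y (median 62.2). WT mouse 6 was far above the other WT mice, and A226Y mouse 29 was the lowest of all 18. The log2 fold change was 0.14 (SE 0.19, 95% interval -0.25 to 0.54, edgeR adjusted p = 0.648), and it was -0.12 with the surrogate variables.

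*Cebpa* (chromosome 7, 35119293 to 35121928, plus strand) lay between 452 and 914 CPM in WT (median 635) and between 332 and 622 CPM in A226Y (median 540). All 10 A226Y mice lay under the WT mean, but only mouse 29 lay under every WT mouse, and the lowest WT mouse was 33. The mean was 518 CPM ± 86.4 (SD, n = 10) against 652 ± 130 (SD, n = 8). The log2 fold change of -0.33 (SE 0.12, 95% interval -0.59 to -0.07) did not pass the adjusted threshold (unadjusted p = 0.0126, edgeR adjusted p = 0.0697), while the two-sided exact permutation test on this gene alone gave p = 0.0168. It passed with DESeq2 (adjusted p = 0.0455), without WT mouse 33 (-0.39, adjusted p = 0.0307) and without mice 29 and 33 (-0.34, adjusted p = 0.0183).

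*Nr5a2* (chromosome 1, 136842571 to 136960448, minus strand) lay between 63.9 and 80.2 CPM in WT (median 69.5) and between 56.4 and 87.7 CPM in A226Y (median 78.6). In all, 3 A226Y mice lay above every WT mouse and mouse 29 lay below every one. The log2 fold change was 0.13 (SE 0.07, 95% interval -0.02 to 0.28, edgeR adjusted p = 0.242). Without mouse 29 it was 0.17 with an adjusted p of 0.0425, and without mice 29 and 33 it was 0.17 with an adjusted p of 0.0522. *Onecut1* (chromosome 9, 74861921 to 74891781, plus strand) varied most between mice, from 9.16 to 24.3 CPM in WT (median 18.9) and from 9.10 to 25.6 CPM in A226Y (median 16.5). The ranges were nearly the same, with coefficients of variation of 37.7% in WT and 28.2% in A226Y. Its log2 fold change of -0.06 (SE 0.21, 95% interval -0.51 to 0.39, edgeR adjusted p = 0.873) is the least precise of the 9, and it was -0.39 with the surrogate variables (adjusted p = 0.465).

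The xenobiotic receptors had different values. *Nr1i2* (chromosome 16, 38248323 to 38294824, minus strand), the gene of PXR, lay between 96.7 and 127 CPM in WT (median 118) and between 98.6 and 132 CPM in A226Y (median 117). The groups overlapped almost fully, and the log2 fold change was 0.02 (SE 0.08, 95% interval -0.14 to 0.18, edgeR adjusted p = 0.883). *Nr1i3* (chromosome 1, 171213970 to 171220701, plus strand), the gene of CAR, lay between 427 and 710 CPM in WT (median 518) and between 202 and 494 CPM in A226Y (median 426). In all, 5 A226Y mice lay under every WT mouse, with mouse 29 the lowest. The mean was 395 CPM ± 89.2 (SD, n = 10) against 544 ± 90.1 (SD, n = 8), 0.726 times the WT level. *Nr1i3* was lower in A226Y at a log2 fold change of -0.46 (SE 0.14, 95% interval -0.76 to -0.17, edgeR adjusted p = 0.0321), with p = 0.00142 in the two-sided exact permutation test. The call held without mice 29 and 33 (-0.37, adjusted p = 0.0268). It was lost without WT mouse 24 (-0.40), 28 (-0.44) or 33 (-0.44) and without A226Y mouse 7 (-0.44), 11 (-0.45) or 15 (-0.43), where the adjusted p lay between 0.0514 and 0.0744. It was also lost after a correction for transcript length (-0.44, adjusted p = 0.0531) or GC content (-0.41, adjusted p = 0.0696) and with the surrogate variables (-0.41, adjusted p = 0.139).

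**Figure D2:**
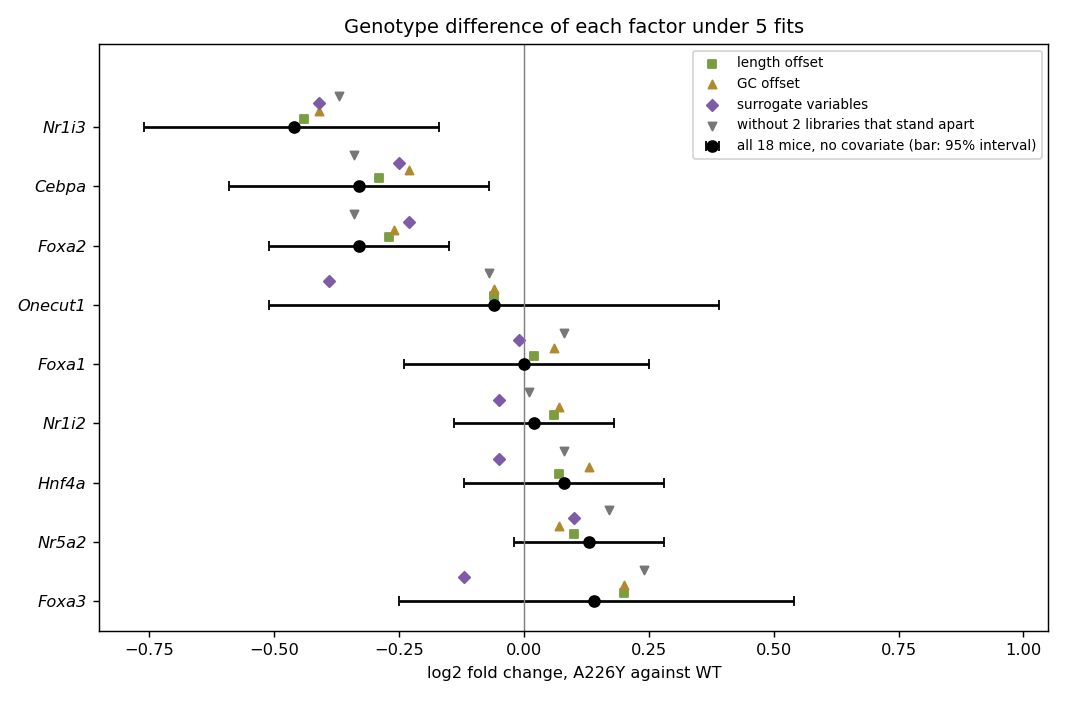
Log2 fold change of each factor, A226Y against WT (x axis), with its 95% interval as a bar for the comparison of all 18 mice, and the values under 4 other fits as coloured marks. *Nr1i3*, *Cebpa*, *Foxa2* and *Onecut1* sit left of 0 under all 5 fits, while *Foxa3*, *Hnf4a*, *Nr1i2* and *Foxa1* cross 0 when surrogate variables are used.

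The *Nr1i3* counts moved with those of a neighbour. *Tomm40l* (chromosome 1, 171216011 to 171222514, minus strand), which encodes a relative of a mitochondrial import channel, overlaps 3304 of the 4414 exon bases of *Nr1i3* on the opposite strand, and whether reads were counted by strand is not given in the sources used here. The *Tomm40l* counts were between 75.6% and 79.4% of the *Nr1i3* counts in each A226Y mouse and between 76.1% and 77.9% in each WT mouse. Its log2 fold change was -0.45 (SE 0.14, edgeR adjusted p = 0.0306), close to that of *Nr1i3*. The reads of the 2 genes cannot be told apart, so the lower value cannot be assigned to either alone. The antisense or long non-coding genes, *Gm45091* and *Gm20649*, overlap 51 exon bases of *Cebpa* and 2171 of the 4113 exon bases of *Onecut1*, and neither has a count of its own here.

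**Figure D3:**
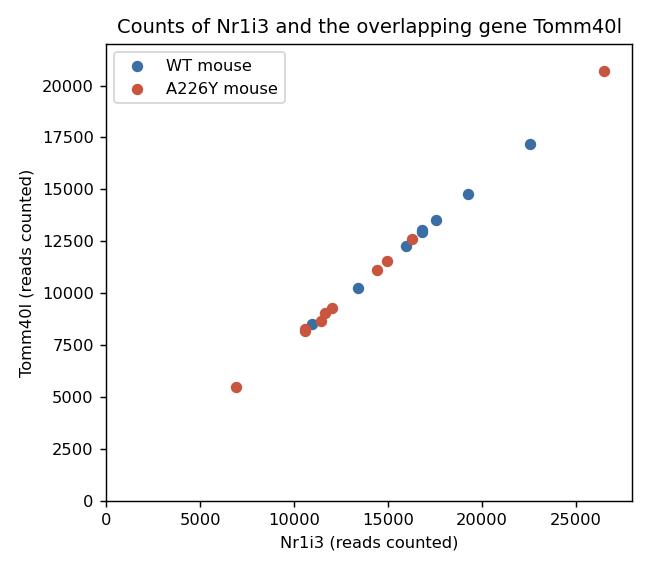
Reads counted for *Nr1i3* (x axis) and for the gene *Tomm40l*, which overlaps it on the opposite strand (y axis), with 1 point per mouse (WT blue, A226Y red). The points of both genotypes fall along 1 line, with *Tomm40l* at 75.6% to 79.4% of *Nr1i3*.

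Per length, the factors spanned a wide range of mRNA levels. The levels of *Nr1i3* and *Onecut1* may include reads of the overlapping genes *Tomm40l* and *Gm20649*, so their places in the order are uncertain. In WT liver *Cebpa* was highest at 247 CPM per kb of exon, followed by *Hnf4a* at 160 and *Nr1i3* at 123, and neighbours among these 3 had overlapping ranges. *Nr1i2* at 44.7 and *Foxa3* at 27.3 CPM per kb lay below them, and their ranges overlapped with each other. *Foxa2* at 14 and *Nr5a2* at 11.8 CPM per kb came next, and their ranges overlapped too. *Onecut1* at 4.30 and *Foxa1* at 4.22 CPM per kb were lowest and alike. The 4 tiers were separate in WT, since *Nr1i3* and *Nr1i2*, *Foxa3* and *Foxa2*, and *Nr5a2* and *Onecut1* did not overlap. In A226Y liver the level per kb was 196 for *Cebpa*, 169 for *Hnf4a*, 89.4 for *Nr1i3*, 45.4 for *Nr1i2*, 30.2 for *Foxa3*, 12.9 for *Nr5a2*, 11.2 for *Foxa2*, 4.23 for *Foxa1* and 4.12 for *Onecut1*. Neighbours were separate there only between *Hnf4a* and *Nr1i3* and between *Foxa2* and *Foxa1*, but the overlaps of *Nr1i3* with *Nr1i2* and of *Foxa3* with *Nr5a2* came from mouse 29 alone. Among the other A226Y mice *Nr1i3* was at least 71.1 CPM per kb with *Nr1i2* at most 50.3, and *Foxa3* at least 24.9 with *Nr5a2* at most 14.9, so the breaks between the WT tiers were present in them too. Divided by the longest transcript instead of all exon bases, *Nr1i3* stood at 182 CPM per kb in WT, above *Hnf4a* at 177. On that scale *Foxa3* and *Foxa2* overlapped in WT, and in A226Y *Nr1i3* (at most 166) overlapped with *Hnf4a* (at least 154) and was separate from *Nr1i2*, so these breaks depend on the length used.

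**Figure D4:**
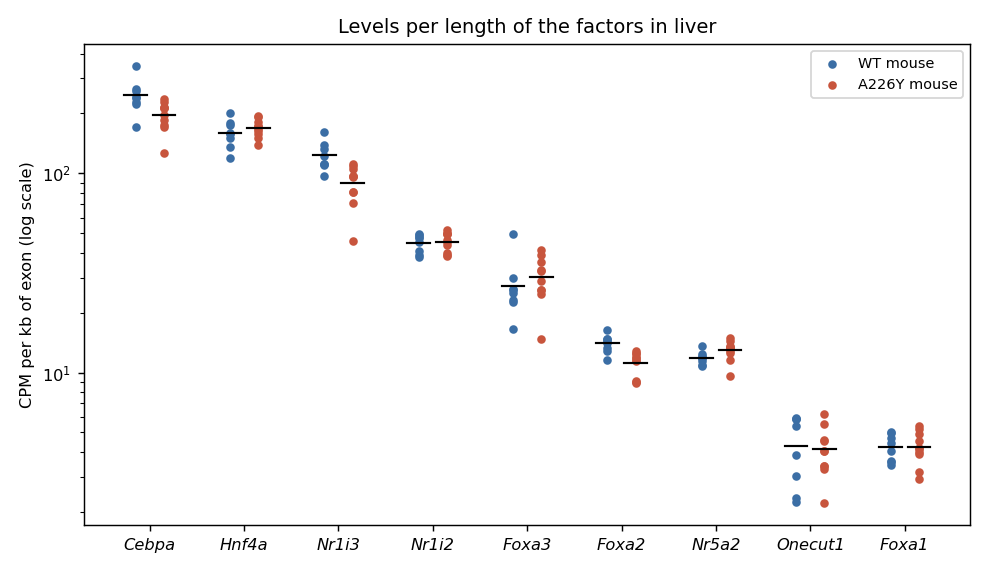
Level of each factor per length, in CPM per kb of exon on a log axis (y axis), in each WT mouse (blue) and A226Y mouse (red), with the group means as lines. The WT means fall from 247 for *Cebpa* to 4.22 for *Foxa1*, and *Hnf4a* and *Nr1i3*, which overlap in WT, do not overlap in A226Y on this scale. Points of *Nr1i3* and *Onecut1* may include reads of overlapping genes.

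How the factors varied between mice of the same genotype was described by Pearson's r of log2 CPM over the 18 mice, after each gene was centred on its genotype mean. The points share the library, and no p is given. Among the 36 pairs of factors the highest r was 0.62, for *Cebpa* and *Nr1i3*, followed by 0.592 for *Nr1i3* and *Nr5a2* and 0.561 for *Hnf4a* and *Onecut1*. The lowest was -0.424, for *Cebpa* and *Onecut1*. Without mice 29 and 33 these 4 values were 0.544, 0.102, 0.714 and -0.149. Within the 8 WT mice r was 0.307 for *Cebpa* and *Nr1i3*, 0.142 for *Nr1i3* and *Nr5a2*, 0.757 for *Hnf4a* and *Onecut1* and -0.283 for *Cebpa* and *Onecut1*. Without WT mouse 33 these values were 0.683, 0.148, 0.865 and -0.036. Within the 10 A226Y mice the same pairs had 0.81, 0.716, 0.215 and -0.599, and without mouse 29 they had 0.398, 0.062, 0.412 and -0.328. The highest value among the WT mice, 0.777 for *Nr1i2* and *Nr1i3*, stood beside -0.186 among the A226Y mice and 0.371 without mouse 29. No difference in r between the genotypes was tested. Mouse 29 was the lowest of all 18 mice for *Foxa1*, *Foxa3*, *Cebpa*, *Nr5a2* and *Nr1i3* and the highest for *Onecut1* and *Nr1i2*. The genes most like each factor were picked as the highest r among all tested genes, which by itself favours high values. Each r is followed by its value without mice 29 and 33. Those most like *Hnf4a* were *Cdc25a* (r = 0.892, 0.911), *Ncoa1* (0.885, 0.888) and *Stxbp5* (0.859, 0.876). Those most like *Foxa2* had lower values over the 18 mice, with *Nudt13* (0.726, 0.743), *Sgsm2* (0.722, 0.728) and *Hmgn3* (0.700, 0.760). For *Foxa1* they included *Teddm2* (0.783, 0.675) and *Zscan26* (0.682, 0.524). For *Foxa3* they included *Marveld2* (0.862, 0.847) and *Minpp1* (0.832, 0.748). *Cebpa* was most like *Mospd3* (0.914, 0.899), *Ypel3* (0.906, 0.784) and *Ppp2r5a* (0.905, 0.752). For *Nr5a2* they included *Gnai3* (0.901, 0.805) and *Cyp2c68* (0.899, 0.786). *Onecut1* was most like *Tia1* (0.818, 0.840), *Ints6l* (0.817, 0.794) and *Ice1* (0.814, 0.796). *Nr1i2* was most like *Numa1* (0.868, 0.854), *Gfap* (0.806, 0.839) and *Cul9* (0.803, 0.771). *Nr1i3*, beside *Tomm40l* (0.999, 0.999), was most like *Plcg1* (0.870, 0.713) and *Chuk* (0.868, 0.714).

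Around the 9 factors, 6 of 42 other liver transcription factors changed, 2 up and 4 down (14.3%, the share of all genes). *Srebf1*, which encodes the driver of fatty acid synthesis SREBP-1, fell from a median of 188 CPM in WT (114 to 314) to 86.3 CPM in A226Y (42.3 to 158), a log2 fold change of -1.22 (SE 0.26, edgeR adjusted p = 0.00551), with 8 of 10 A226Y mice under every WT mouse. *Mlxipl*, the gene of the glucose-responsive ChREBP, fell by 0.53 on the log2 scale (adjusted p = 0.00389). *Rxrg*, a partner subunit of CAR, PXR and other nuclear receptors, fell by 0.47, and *Zhx2*, a repressor of fetal liver genes, fell by 0.34. *Rxrg* was scarce, at a mean of 5.82 CPM in A226Y and 8.04 CPM in WT. The related gene *Rxra*, at 553 CPM in A226Y and 572 CPM in WT, was not called (-0.05, edgeR adjusted p = 0.68). *Rxrb* was not called either (-0.05, edgeR adjusted p = 0.643). *Klf9* (0.48), a hormone-responsive Krüppel-like factor, and *Atf5* (0.51), a stress-responsive leucine zipper factor, rose. *Srebf1* and *Atf5* share 109 and 82 exon bases with genes on the opposite strand.

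Of 17 coregulators, the proteins through which these factors act on chromatin and transcription, 4 rose and 2 fell (35.3%), at a median log2 fold change of 0.166. *Ppargc1a*, which encodes PGC-1alpha, a coactivator of HNF4A and other nuclear receptors in fasting, rose from a median of 12.7 CPM (9.67 to 19.7) to 19.2 CPM (14.4 to 30.1), at a log2 fold change of 0.74 (SE 0.16, edgeR adjusted p = 0.00539), with all 10 A226Y mice above the WT mean. The coactivator *Ncoa2* (0.22), the deacetylase *Sirt1* (0.28) and the corepressor *Nrip1* (0.29) rose less. *Sirt1* had 7 of 10 A226Y mice above every WT mouse. *Tle3*, a Groucho corepressor, fell by 0.73, and *Hdac3*, the deacetylase of the NCoR complex, fell by 0.20.

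The known targets of the factors moved in both directions, as counted in lists that share genes with each other. Of 40 HNF4A targets 3 rose and 7 fell (25.0%, median -0.161). The largest changes were *Apoa4* (1.23), *Cps1* (0.55) and *Apob* (0.29) upwards and *F11* (-0.63), *Otc* (-0.47) and *Abcc6* (-0.44) downwards. *Cps1* and *Otc* encode consecutive enzymes of the urea cycle, and *Apoa4* and *Apob* encode lipoprotein components. *Abcc6* lay under every WT mouse in 9 of 10 A226Y mice. Of 20 FOXA targets 4 rose and 3 fell (35.0%, median 0.123). *Igfbp1*, a fasting-induced binding protein of insulin-like growth factors, rose most (1.68), with a highest value of 685 CPM in mouse 29 beside a group median of 93.8, followed by the amino acid enzyme genes *Tat* (0.85) and *Cps1*. The highest *Tat* value, 5810 CPM, was that of mouse 29 too; without mice 29 and 33 *Tat* was not called (0.67, edgeR adjusted p = 0.0645), which holds for every list with *Tat*. *Serpina6*, the gene of corticosteroid-binding globulin, fell most (-1.21), followed by *Pklr* (-0.75) of glycolysis, which shares 711 exon bases with a gene on the opposite strand, and *Cyp2c29* (-0.50).

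Of 22 C/EBP-alpha targets 5 rose and 1 fell (27.3%, median 0.039). The risers were *Lepr* (1.53), the leptin receptor gene, *Tat*, *Cps1*, *Apob* and *Tdo2* (0.55), which encodes an enzyme of tryptophan breakdown, and *Adh1*, an alcohol dehydrogenase gene, fell by 0.66. *Tdo2* was above every WT mouse in 9 of 10 A226Y mice, and *Adh1* under every WT mouse in 9 of 10. Of 18 LRH-1 targets none rose and 4 fell (22.2%, median -0.131), and in the upward direction 1 had an unadjusted p under 0.05 and 0 passed with DESeq2 or limma-voom. Without mice 29 and 33, 1 was called higher, *Abcb4* (0.25, edgeR adjusted p = 0.039), named after its value was seen. Among the 4 were *Serpina6*, *Mlxipl* and *Apom* (-0.32), which encodes a component of high-density lipoprotein. Of 14 HNF6 targets 1 rose, *Tat*, and 2 fell, *Foxa2* itself among them (21.4%, median -0.222). No HNF6 target rose and 4 fell when mice 29 and 33 were left out.

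Of 44 genes known to respond to CAR or PXR, 2 rose and 6 fell (18.2%, median -0.161). *Cyp2b10*, the classical CAR-induced cytochrome P450 gene, rose from a median of 7.23 CPM in WT (2.48 to 13.7) to 19.2 CPM in A226Y (11.8 to 42.2), at a log2 fold change of 1.45 (SE 0.29, edgeR adjusted p = 0.00398). In all, 9 of 10 A226Y mice lay above every WT mouse. *Slco1a4*, a bile salt and drug uptake transporter gene, rose by 0.77. The largest falls were those of *Thrsp* (-2.11), a lipogenic gene, *Ces2c* (-1.50), a carboxylesterase gene at 2.63 CPM ± 1.71 (SD, n = 8) in WT, and *Cyp1a2* (-1.03), a P450 gene of pericentral hepatocytes. The others were *Gstt1* (-0.65), *Cyp2c29* (-0.50) and *Papss2* (-0.44). Counts of *Cyp2b10*, *Cyp2c29* and *Ces2c* are uncertain, since each belongs to a family of near-identical genes between which reads can be split.

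Without mice 29 and 33, 54 of the 57 called genes of all lists, the 9 factors included, were still called, all but *Tat*, *F11* (-0.37) and *Papss2* (-0.38). That fit called more genes in all (2363 of 13269). Its counts higher and lower were 2 and 5 for the other transcription factors, 6 and 2 for coregulators, 4 and 7 for HNF4A targets, 4 and 4 for FOXA targets, 5 and 3 for C/EBP-alpha targets, 1 and 4 for LRH-1 targets and 2 and 6 for CAR and PXR targets. With the surrogate variables, 36 of the 57 kept their direction at a value over 1.5 times smaller, and 1, *Tat*, turned (-0.04). *Srebf1* was then -0.48, *Ppargc1a* 0.19, *Tle3* -0.09, *Cps1* 0.11, *Igfbp1* 0.42 and *Thrsp* -0.73.

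**Figure D5:**
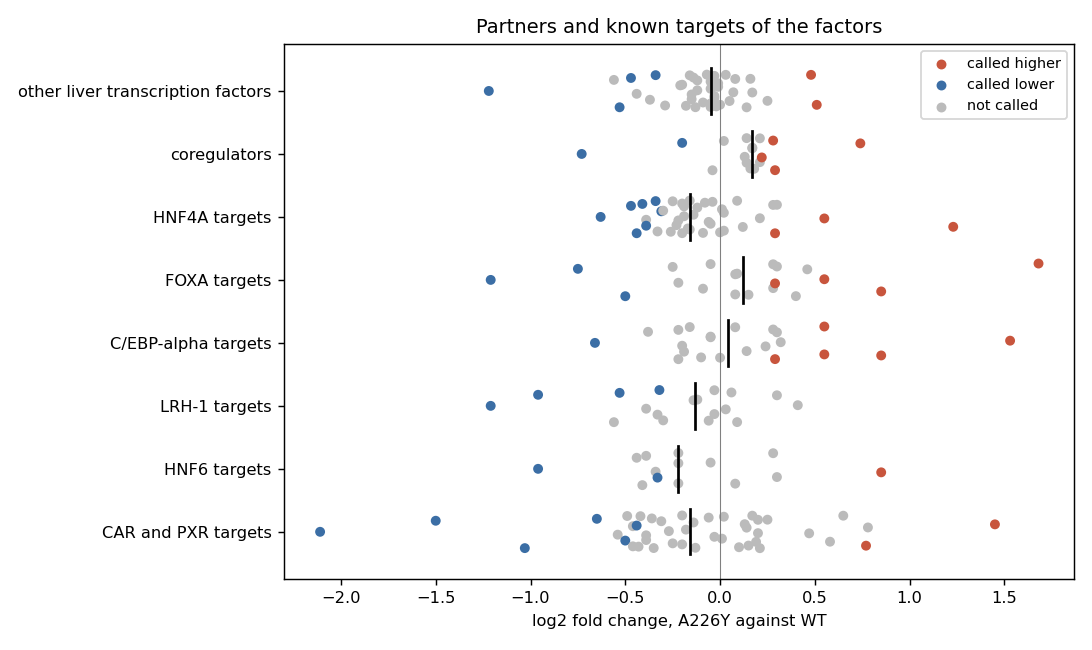
Log2 fold change, A226Y against WT (x axis), of every tested gene in 8 lists of partners and targets of the factors, with 1 point per gene (red called higher, blue called lower, grey not called; height within a row is arbitrary) and the list median as a black line. The medians lie between -0.222 for HNF6 targets and 0.166 for coregulators, and called genes lie on both sides in every list but the LRH-1 targets, where all 4 are lower.

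Some genes of other groups were called beside these results, and their part in them was not tested. Of 16 genes induced by fasting 4 rose and none fell (25.0%, median 0.57), beside 14.3% called among all tested genes. At an unadjusted p under 0.05, 10 were higher and 0 lower, and 0 were lower by DESeq2 or limma-voom. The 4 were *Igfbp1*, *Ppargc1a*, *Cidec* (1.67) and *Fam107a* (1.34). Feeding state and the hour of collection are not given in the sources used here. Of 18 clock genes 2 rose and 2 fell (22.2%), and *Clock*, a core activator of the clock, rose by 0.61 with all 10 A226Y mice above every WT mouse. Of the 20 hepatocyte markers 35.0% were called. In all, 4 rose, the most *Tat* (0.85), *Tdo2* (0.55) and *Cps1* (0.55), and 3 fell, which were *Asgr2* (-0.44), *Asgr1* (-0.31) and *Fah* (-0.24). Without mice 29 and 33 the counts higher and lower were 7 and 0 for fasting genes, 3 and 2 for clock genes and 3 and 4 for hepatocyte markers.

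Markers of other liver cells were present at their own levels. Of 13 Kupffer cell and macrophage markers 12 had negative values and 1, *Clec4f*, fell (-0.65), so 7.69% were called beside 14.3% of all tested genes. Their summed level was 727 to 1560 CPM in WT and 491 to 1820 CPM in A226Y (1820 in mouse 29, and at most 1180 in the others). Of the 13, 8 fell when mice 29 and 33 were left out. Of 14 stellate cell markers 35.7% were called, since 1 rose, *Hgf* (0.34), and 4 fell, *Col1a1* (-0.77), *Col3a1* (-0.60), *Col1a2* (-0.33) and *Colec11* (-0.30). Their sum was 577 to 778 CPM in WT and 619 to 724 CPM in A226Y. The cholangiocyte markers, of which 10 of 14 were tested, summed to 27.0 to 45.4 CPM in WT and 28 to 45.5 CPM in A226Y, and 1, *Tspan8*, rose (1.03). By edgeR 0 of 12 sinusoidal endothelial markers and 0 of 14 lymphocyte markers were called, with 2 and 1 at an unadjusted p under 0.05 and 0 by DESeq2 or limma-voom. All 14 lymphocyte markers had negative values (median -0.404), while 6 endothelial markers had positive and 6 negative values (median -0.006). Endothelial sums were 491 to 678 CPM in WT and 494 to 729 CPM in A226Y, and lymphocyte sums 101 to 1140 CPM in WT (1140 in mouse 33, and at most 586 in the others) and 95.3 to 441 CPM in A226Y (441 in mouse 3, and at most 276 in the others). Of the pancreas markers, which would show carried-over tissue that also uses *Foxa2*, *Nr5a2* and *Onecut1*, 2 of 12 were tested and 0 called by edgeR, DESeq2 or limma-voom or at an unadjusted p under 0.05, with sums of 3.99 to 8.07 CPM in WT and 3.90 to 10.7 CPM in A226Y (10.7 in mouse 29, and at most 6.35 in the others) and *Ptf1a* at 0 in every mouse. Of 13 tested genes of the fetal liver 0 were called by edgeR, with 2 at an unadjusted p under 0.05 and 0 by DESeq2 or limma-voom. Their sum was 101 to 121 CPM in WT and 99 to 180 CPM in A226Y, highest in mouse 29. Without mice 29 and 33, 1 was called higher, *Afp* (0.50, edgeR adjusted p = 0.04), the alpha-fetoprotein gene, named after its value was seen.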

How the data were processed

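Liver RNA-seq of 18 mice (10 A226Y, 8 WT) was used, and the authors deposited raw counts, in whole reads for each Ensembl gene and mouse, not normalized. The paper's methods name RSEM, and the submitters' processing notes name bcl2fastq, MultiQC, fastp, STAR, featureCounts and the build GRCm38, so which tool and build gave the counts, and whether strand was used, is not given in the sources used here. GENCODE M21 (GRCm38) gave a position to 22214 of the 22524 genes. Groups came from the genotype labels. Nothing says whether libraries were prepared in batches.

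Genes that reached 10 counts in 50% or more of either genotype's mice were tested (13353) with edgeR 4.0.16 in R 4.3.3: TMM scaling, two-sided quasi-likelihood test, no covariates, Benjamini-Hochberg adjustment. Filter and tool follow the study. An SE is the log2 fold change divided by the square root of F, and intervals are at 95% with 16 degrees of freedom. Exact permutation tests ran over all divisions into 10 and 8 mice (scipy 1.17.1 in Python 3.11.15). Every within-genotype pair of mice differed by more than sampling noise (chi-square per degree of freedom of at least 20.1). On simulated counts of this comparison (13260 genes, 200 changed), the test recovered 178 with 11 false calls. Recovery was not split by size of change, so it does not show how often changes as small as those of the factors would be found. Total counts of at least 23850565 make counting error small beside the spread between mice.

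The 9 factors and all lists were chosen with earlier results of these data known. The genes named are the 9 factors, *Rps2*, in each list all called genes if 6 or fewer and otherwise the 3 largest called changes in each direction, the 3 genes most like each factor (log2 CPM with a prior count of 2), and listed genes with overlapping exons. *Rxra* and *Rxrb* are named beside *Rxrg*, after their values were seen. The motifs, the fit without mice 29 and 33 and the correlations without either of them were chosen after seeing the data.

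Alternatives were RLE, upper quartile and library-size scaling, no filter, filterByExpr, DESeq2 1.42.0, limma-voom 3.58.1, a robust fit, 4 surrogate variables (sva 3.50.0), lowess offsets on transcript length or GC content (span 0.3, 3 iterations, pseudocount 0.5), and leaving out each mouse. No other measurements of the study were analysed here, and the values of some single genes are left out.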

Additional observations from a re-analysis of the deposited data

Results flagged for a closer look

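*Foxa3* in WT mouse 6 stood at 101 CPM, far above the other 7 WT mice. The gap to its nearest WT neighbour was 0.602 of the range of the 8 WT mice, past Dixon's 95% critical value of 0.526 for 8 samples. Chance alone gives such a gap in about 1 of 20 groups, and 18 groups were examined here (9 factors in each genotype). Leaving out single mice in turn moved the log2 fold change of *Foxa3* between 0.06 and 0.32, and it was called in 0 of the 18 fits (edgeR adjusted p from 0.164 to 0.856).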

How the results depend on the processing

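*Foxa2* was called lower under every alternative but the surrogate variables. With those, 50 genes were called in all, and 0 of the 9 factors, 0 other liver transcription factors, coregulators and targets of HNF4A, FOXA, C/EBP-alpha, LRH-1 or HNF6, and 1 CAR or PXR target; of the 9 factors, 2 had an unadjusted p under 0.05. The values turned to -0.05 for *Hnf4a*, -0.01 for *Foxa1*, -0.12 for *Foxa3* and -0.05 for *Nr1i2*. The length and GC offsets each left 1 of the 9 factors, and the length offset called 10 other transcription factors. DESeq2 called 6 HNF6 targets. *Foxa1* was -0.0036 with upper quartile scaling, -0.02 with limma-voom and -0.01 as the mean difference of log2 CPM in the permutation test. Library-size scaling shifted the share of higher calls from 50.8% to 67.9% and the median of all genes to 0.039. Leaving out 1 mouse gave 1255 (without WT mouse 14) to 2560 calls, 1 to 3 of the 9 factors (1 without WT mice 24 or 28 or A226Y mice 7, 11 or 15), 4 to 8 transcription factors, 4 to 8 coregulators and targets numbering 6 to 14 for HNF4A (6 without WT mouse 24), 3 to 7 for FOXA (3 without WT mouse 24 and 4 without 13, 14 or 21), 4 to 9 for C/EBP-alpha, 3 to 7 for LRH-1 (7 without WT mouse 6), 1 to 5 for HNF6 (1 without WT mouse 14 or 24, 5 without A226Y mouse 29) and 6 to 10 for CAR and PXR. *Hnf4a* ran from 0.03 to 0.14 (edgeR adjusted p from 0.296 to 0.858), *Foxa1* from -0.04 to 0.05, *Onecut1* from -0.16 to 0.01 and *Nr1i2* from -0.01 to 0.05. The causes were not tested. Depth did not limit these genes, and the spread between mice sets the intervals. No paired analysis was possible because the genotypes share no replicate numbers.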
